A study of Bos taurus with 4 samples.

Results

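VEGFA, AGT, C3 and NAMPT are 4 genes of secreted proteins that the study discussed among the adipokines of Qinchuan cattle, a Chinese breed. They were taken as 4 of 36373 UniGene clusters, each a group of transcripts with a single sequence standing for it: Bt.4138 for VEGFA, Bt.14715 for AGT, Bt.19562 for C3 and Bt.33608 for NAMPT. RNA-seq was done on subcutaneous adipose tissue of fetuses aged 200 to 250 days (the ATFB library) and of adults aged 18 to 24 months, which were bulls (ATAB), heifers (ATAH) or steers, that is castrated males (ATAS). Tissue of 5 animals was pooled into 1 library per group, so there were no replicates, the spread between animals was not measured, and a test on 2 libraries compares those libraries and not the conditions. No group carried an engineered allele or received an agent, and the sex of the fetuses was not given in the sources used here. The study chose to discuss these genes because they differed among the adult libraries, so the adult values below are a description.

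Adipose tissue releases proteins that act on vessels, immune cells and distant organs. VEGFA is the main growth factor of blood vessels and binds the receptors FLT1 and KDR on endothelial cells, with the neuropilins as co-receptors. AGT is angiotensinogen, the precursor of the angiotensin peptides, made by successive enzymes among them angiotensin converting enzyme, that set vessel tone and salt balance. C3 is the central protein of complement, cleaved to C3a and C3b, and fat also makes factor B and factor D (CFB and CFD), the proteins that activate it by the alternative pathway. NAMPT makes nicotinamide mononucleotide, the step that limits NAD recycling from nicotinamide, and its secreted form is also called visfatin. Liver is the classical source of plasma AGT and C3.

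The coding stretches that identify what each cluster measures were read from the study's own cluster sequences and are shown 5′ to 3′, each with up to 45 flanking coding bases on either side. Capitals mark the codons of angiotensin I in AGT (codons 25 to 34), of the thioester site by which C3b attaches to surfaces in C3 (codons 1008 to 1012), of the active-site histidine in NAMPT (codon 247) and of the C-terminal residues that set apart the vessel-promoting splice form of VEGFA (codons 185 to 190).
AGT: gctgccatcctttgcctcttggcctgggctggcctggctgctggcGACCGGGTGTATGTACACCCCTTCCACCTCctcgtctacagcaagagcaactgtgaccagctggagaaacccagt
C3: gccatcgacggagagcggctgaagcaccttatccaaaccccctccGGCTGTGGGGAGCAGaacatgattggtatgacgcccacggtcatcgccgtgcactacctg
NAMPT: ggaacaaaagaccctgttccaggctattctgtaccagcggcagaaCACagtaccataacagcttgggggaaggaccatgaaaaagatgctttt
VEGFA: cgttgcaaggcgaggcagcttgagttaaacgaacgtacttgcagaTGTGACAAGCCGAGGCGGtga
Each peptide was found once in the translated coding region of its cluster. The stretches lie at bases 164 to 283 of the AGT sequence, 3040 to 3144 of C3, 1032 to 1124 of NAMPT and 1053 to 1118 of VEGFA, counted from the first base of the cluster sequence. Chromosome positions were not used here.

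The cluster sequences differed in make-up as well as in length. That of VEGFA had 1536 bases and a coding region of 190 codons, with 545 bases before it of which 74.9% were G or C. AGT had 1675 bases and 424 codons, and C3 had 5126 bases of which all but 140 were coding or stop codon. NAMPT had 5048 bases, of which 3234 followed its 491 codons, and its G and C content of 37.5% was the lowest of the 4. Reads of different splice forms of a gene were counted on the same cluster and cannot be told apart here.

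The libraries held 15.3 M to 16.1 M counted reads, and reads were found on 31003 to 31883 clusters. The 10 clusters with the most reads took 16.7% of the reads in ATAB and 8.56% to 12.4% in the other libraries. Levels are given in RPKM, which scales reads to the sequence length and the library total and so allows comparison between genes. Intervals cover counting error only, since reads that carry no molecular identifier cannot be counted as separate molecules.

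VEGFA had the highest level of the 4 genes in every library. ATFB had 846 reads or 36.1 RPKM, ATAB 1002 reads or 40.4 RPKM, ATAH 2239 reads or 93.5 RPKM and ATAS 6136 reads or 256.8 RPKM. The steer library thus stood far above the others, and the bull and fetal libraries lay close together. Among clusters with reads, this level was above 91.7% of them in ATFB and above 99.2% in ATAS.

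AGT had the lowest level of the 4 genes in the fetal and bull libraries, and in ATAH its interval (13.5 to 16.5 RPKM) overlapped that of NAMPT (16.2 to 18.0 RPKM). ATFB had 79 reads or 3.09 RPKM, ATAB 100 reads or 3.70 RPKM, ATAH 391 reads or 15.0 RPKM and ATAS 680 reads or 26.1 RPKM. The exact Poisson 95% interval was 2.44 to 3.85 RPKM in ATFB and 3.01 to 4.50 RPKM in ATAB, so these 2 libraries overlapped, while ATAH and ATAS lay above both. From ATFB to ATAS the gene moved from above 52.8% to above 88.5% of the clusters with reads.

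C3 followed the same order. ATFB had 740 reads or 9.45 RPKM, ATAB 836 reads or 10.1 RPKM, ATAH 4734 reads or 59.2 RPKM and ATAS 6900 reads or 86.5 RPKM. The intervals of ATFB (8.78 to 10.2 RPKM) and ATAB (9.43 to 10.8 RPKM) overlapped, and those of ATAH and ATAS were apart from them and from each other.

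NAMPT varied least. ATFB had 1152 reads or 14.9 RPKM, ATAB 797 reads or 9.78 RPKM, ATAH 1342 reads or 17.1 RPKM and ATAS 1484 reads or 18.9 RPKM. The bull library was the lowest, and the highest library was 1.93-fold above it, against 7.12-fold for VEGFA, 8.45-fold for AGT and 9.15-fold for C3 between their lowest and highest libraries. The intervals of ATAH (16.2 to 18.0 RPKM) and ATAS (17.9 to 19.9 RPKM) overlapped.

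**Figure D1:**
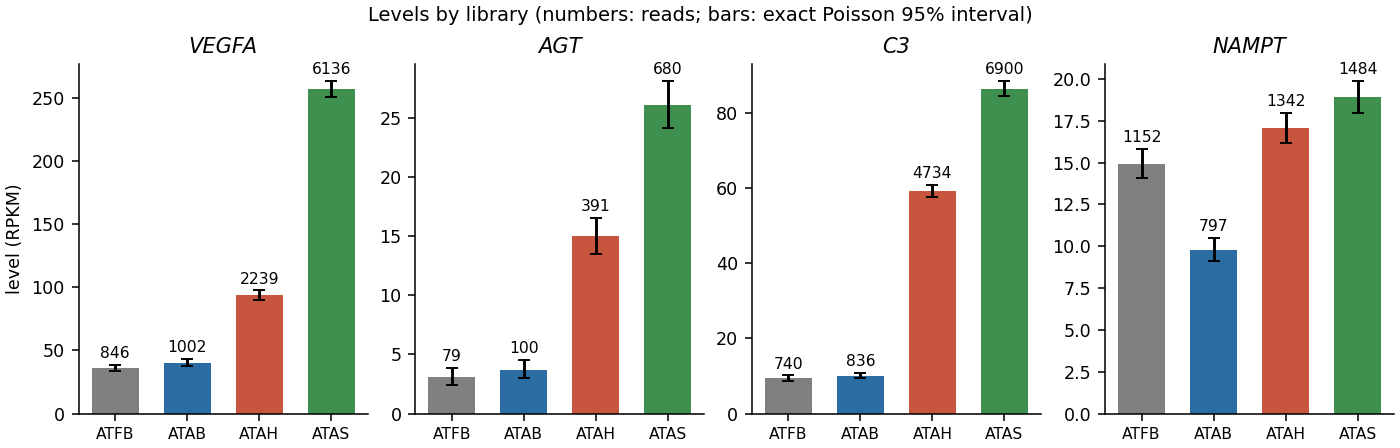
Level in RPKM (vertical axes from 0, scaled separately for each gene) of VEGFA, AGT, C3 and NAMPT in the fetal (ATFB), bull (ATAB), heifer (ATAH) and steer (ATAS) libraries, with the exact Poisson 95% interval as bars and the reads as numbers. VEGFA, AGT and C3 were near their fetal level in ATAB and highest in ATAS at 256.8, 26.1 and 86.5 RPKM, and NAMPT was lowest in ATAB at 9.78 RPKM.

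Within a library, the order of the 4 genes changed. In ATFB it was VEGFA, NAMPT, C3 and AGT, and in ATAH and ATAS C3 stood above NAMPT. In ATAB the intervals of C3 (9.43 to 10.8 RPKM) and NAMPT (9.11 to 10.5 RPKM) overlapped, and the order of these neighbours was not resolved. In ATAS, AGT at 26.1 RPKM was above NAMPT at 18.9 RPKM. The levels of the 4 genes summed to 63.5 RPKM in the fetal library, 64.0 in ATAB, 184.8 in ATAH and 388.3 in the steer library, and VEGFA supplied 50.6% to 66.1% of the sum. The share of NAMPT was 23.5% in ATFB and 4.87% in ATAS.

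To see how the fetal library differed from each adult library, each cluster's split of reads between 2 libraries was set against that of the library totals in an exact binomial test (two-sided), adjusted by Benjamini-Hochberg over all clusters with a read. A call needed an FDR no larger than 0.001 together with a 2-fold or greater difference in RPKM. These 3 comparisons share the fetal library. The ATAH and ATAS libraries were each called higher than the ATFB library for VEGFA, AGT and C3, and none of the 4 genes was called between ATAB and ATFB. The genes were chosen by adult values, which also enter these comparisons, so these calls and the FDRs below are a description. As background, 22.9% of 34096 clusters were called for ATAB, 24.1% of 34589 for ATAH and 26.3% of 34474 for ATAS, and those higher in the adult library were 9.61%, 14.0% and 15.6%.

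Against ATFB, VEGFA was 2.59-fold higher in ATAH (95% Clopper-Pearson interval 2.39 to 2.81) and 7.12-fold higher in ATAS (6.63 to 7.66). In ATAB it was at 1.12-fold (1.02 to 1.23, binomial FDR 0.0323), which was not called. The binomial FDR in ATAH was 4.34e-136. On the log2 scale the ATAS ratio was 2.83, and 5.4% of the clusters with a ratio had a higher one.

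AGT was 4.85-fold higher in ATAH than in ATFB (3.799 to 6.26, binomial FDR 3.68e-48) and 8.45-fold higher in ATAS (6.69 to 10.8, binomial FDR 2.33e-116). In ATAB the ratio was 1.20 (0.883 to 1.63), and no difference was detectable at this depth. The intervals were wide, with 79 fetal reads behind them.

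C3 was 6.27-fold higher in ATAH than in ATFB (5.80 to 6.78) and 9.15-fold higher in ATAS (8.49 to 9.89). In ATAB it was at 1.07-fold of ATFB (0.967 to 1.18). Of the clusters with a ratio, 3.73% had a higher one than C3 in ATAS against ATFB.

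NAMPT was at 0.654-fold of ATFB in ATAB (0.597 to 0.717), at 1.14-fold in ATAH (1.05 to 1.24) and at 1.26-fold in ATAS (1.17 to 1.37). None of these reached 2-fold. The log2 ratio was below 0 in the bull library and above 0 in the heifer and steer libraries, as was the median over all clusters (-0.18, 0.12 and 0.13), and 63.7%, 47.7% and 44.3% of the clusters with a ratio had a higher one than NAMPT. With ACTB as the scaling gene the ATAH value was -0.08 on the log2 scale, below 0.

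The 3 adult libraries were then set together against ATFB in edgeR's quasi-likelihood test, in which the differences between bulls, heifers and steers form the spread. At an FDR of 0.05, 18.2% of 25584 clusters were called, 9.83% higher and 8.40% lower in adults. None of the 4 genes was called, and none had an unadjusted p under 0.05 in this test. Since the genes were chosen for differing among the adults, and those differences are the spread here, nothing is read from the missing calls. The log2 fold change of adults over ATFB was 1.75 for VEGFA (edgeR adjusted p = 0.2), 2.17 for AGT (edgeR adjusted p = 0.139), 2.35 for C3 (edgeR adjusted p = 0.147) and -0.03 for NAMPT (edgeR adjusted p = 0.958). Leaving out an adult library changes the spread that the genes were chosen for, so only fold changes are given for those fits. Without ATAB, whose levels of the first 3 were the lowest of the adults, the values were 2.13 for VEGFA, 2.59 for AGT and 2.80 for C3. Without ATAS the values were 0.87 for VEGFA, 1.55 for AGT and 1.81 for C3, and without ATAH they were 1.95, 2.18 and 2.26. NAMPT was at 0.13 without ATAB. DESeq2's Wald test on all 4 libraries called AGT (DESeq2 adjusted p = 0.0337) and none of the other 3, and nothing is read from this either.

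Among the adults, the ratios of the 4 genes are given with counting intervals and no test. As background, clusters past the criteria made up 5.58% in ATAH against ATAB (4.32% higher in ATAH), 8.88% in ATAS against ATAB (7.0% higher in ATAS) and 3.08% in ATAS against ATAH (1.59% higher in ATAS), and nothing is read from them for the 4 genes. VEGFA in ATAH was 2.31-fold of ATAB (2.15 to 2.50), and in ATAS it was 6.36-fold of ATAB (5.94 to 6.80) and 2.75-fold of ATAH (2.62 to 2.88). It was the only gene of the 4 that passed 2-fold between steers and heifers. The AGT level in ATAH was 4.05-fold of ATAB (3.24 to 5.10), and in ATAS it was 7.06-fold of ATAB (5.71 to 8.80) and 1.74-fold of ATAH (1.54 to 1.98). For C3 the steer library was at 8.57-fold of the bull library (7.97 to 9.22) and 1.46-fold of the heifer library (1.41 to 1.52), and the heifer library was at 5.87-fold of the bull library (5.45 to 6.32). NAMPT in ATAS was 1.93-fold of ATAB (1.77 to 2.11) and 1.11-fold of ATAH (1.03 to 1.19). Between ATAS and ATAB, 0.797% of the clusters with a ratio had a higher one than C3, 1.33% than AGT, 1.5% than VEGFA and 20.2% than NAMPT.

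The scaling of the libraries moved these ratios. The factors of edgeR's trimmed mean of M values (TMM) lowered every log2 ratio of ATAH over ATAB by 0.28 and of ATAS over ATAB by 0.30 (entered as -0.277 and -0.295), raised that of ATAB over ATFB by 0.18, and changed the remaining 3 by 0.12 or less in size. VEGFA in ATAH against ATAB was then at 0.93 on the log2 scale, under 2-fold, while AGT and C3 stayed above 2-fold at 1.74 and 2.28. In ATAS against ATAB, VEGFA was at 2.37, AGT at 2.52, C3 at 2.80 and NAMPT at 0.66 with TMM factors.

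**Figure D2:**
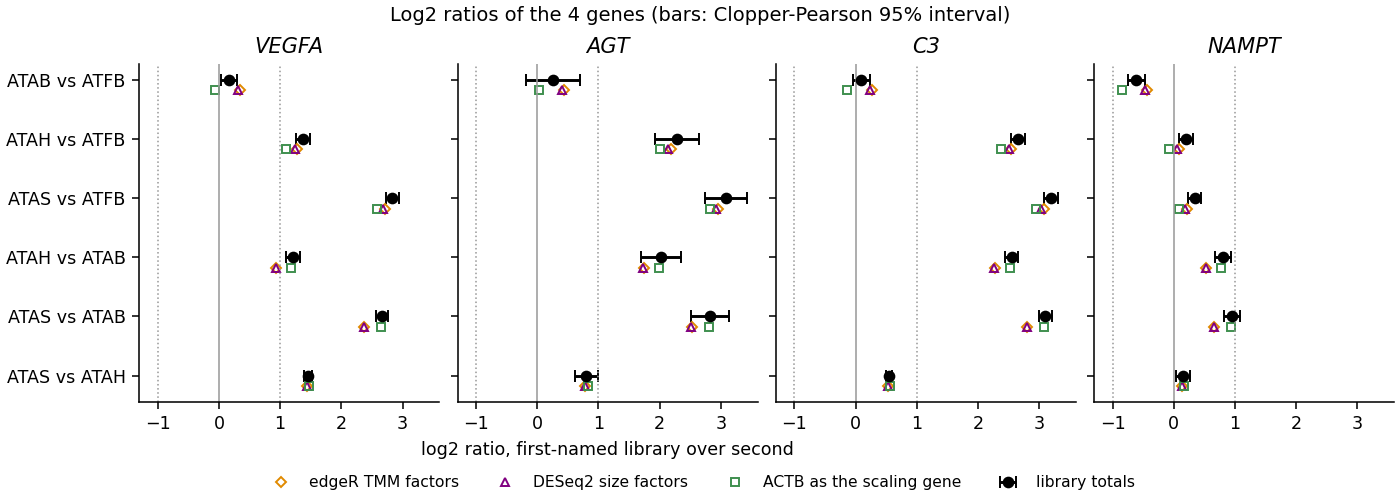
Log2 ratio of RPKM (horizontal axis, first-named library over second) of the 4 genes in the 6 comparisons of 2 libraries, with library totals and the 95% Clopper-Pearson interval (black) and with 3 other scalings (open symbols), dotted lines marking 2-fold. VEGFA, AGT and C3 lay near 0 only in ATAB vs ATFB, at 0.16, 0.26 and 0.10, and all NAMPT values lay within 2-fold.

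The partners of VEGFA were followed in a list of 9 other VEGF ligands and receptors, of which 8 had a named cluster. Between ATAS and ATAB, 2 of the 8 were higher in ATAS and none lower, where 7.0% of all 33724 clusters were higher and 1.89% lower, and the median log2 ratio was 0.59 against 0.34 over all clusters. Where 4 values follow a gene, they are those of ATFB, ATAB, ATAH and ATAS in this order. FLT1, the high-affinity VEGFA receptor, had 7.05, 10.2, 22.0 and 28.8 RPKM, the same order of libraries as VEGFA. It was 2.83-fold higher in ATAS than in ATAB and 4.08-fold higher than in ATFB. The call of FLT1 in ATAH against ATAB, 2.16-fold, was lost with TMM factors. KDR, the main signalling receptor, had 30.3, 28.0, 41.5 and 48.5 RPKM, and no comparison of it was called. VEGFC, a ligand of lymphatic vessels, had 14.9, 11.2, 17.8 and 28.3 RPKM and was higher in ATAS than in ATAB with a log2 ratio of 1.34.

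Of the neuropilins, co-receptors of VEGF proteins, NRP2 had 2.03, 6.91, 9.05 and 13.1 RPKM and was higher than in ATFB in all 3 adult libraries, with log2 ratios of 1.77, 2.16 and 2.69. NRP1 had 30.0, 58.7, 62.0 and 65.9 RPKM. Its log2 ratio of 0.97 in ATAB against ATFB was called only with TMM and DESeq2 factors, and its calls in ATAH and ATAS against ATFB, at 1.05 and 1.14, depended on the scaling: none was left in ATAH under any other scaling, and in ATAS only that with TMM factors was. PGF, a ligand of FLT1, was lower in ATAS than in ATFB and in ATAH, by 2.32-fold and 2.20-fold, from 164, 110, 159 and 72 reads. In ATAS against ATFB, 3 of 8 genes of the list were higher and 1 was lower, where 15.6% of all clusters were higher and 10.8% lower.

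VEGFA is a classical target of the hypoxia-inducible factors, and 19 of 22 genes of a hypoxia list had a named cluster. Of these, 4 were higher and 1 was lower in ATAS than in ATAB, where 7.0% of all clusters were higher and 1.89% lower, with a median log2 ratio of 0.42 against 0.34 over all clusters. With TMM factors 2 were higher and 1 lower, where 3.42% and 3.50% of all clusters were. ADM, adrenomedullin, a peptide that widens vessels, had 73.3, 176.4, 462.0 and 708.0 RPKM, in the order of VEGFA, and was 4.01-fold higher in ATAS than in ATAB. DDIT4, an inhibitor of mTOR signalling, had 222.8, 48.8, 104.1 and 155.4 RPKM. It was 3.18-fold higher in ATAS than in ATAB, and lower in ATAB and ATAH than in ATFB.

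Other genes of this list had other orders. EPAS1, which encodes HIF-2 alpha, had 44.7, 415.7, 321.9 and 310.0 RPKM and was called higher in all 3 adult libraries than in the fetal library. Its log2 ratio of ATAS over ATAB was -0.42. PFKFB3 and PFKFB4, regulators of glycolysis, were likewise above ATFB in every adult library, as calls, and PFKFB4 was lower in ATAS than in ATAB with a log2 ratio of -1.05. P4HA1 (a collagen prolyl hydroxylase), EGLN3 (an oxygen-sensing prolyl hydroxylase) and ANKRD37 were lower in every adult library than in ATFB. P4HA1 had 33.3 RPKM in ATFB and 7.28 to 10.1 RPKM in the adults.

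For AGT, 13 of 18 other genes of the angiotensin system had a named cluster. CTSD, cathepsin D, a lysosomal protease that can cut angiotensinogen, had 195.7, 643.7, 612.8 and 533.4 RPKM and was 2.72-fold to 3.29-fold higher in the adult libraries than in ATFB.

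ACE, angiotensin converting enzyme, had 5.48, 2.74, 5.17 and 7.49 RPKM. It was lowest in ATAB and highest in ATAS, 2.74-fold higher in the latter. Its call in ATAB against ATFB, 2.0-fold lower, was lost with TMM factors. AGTR1, the main angiotensin II receptor, had 22.2, 23.8, 42.3 and 47.6 RPKM, the same order as AGT. Its log2 ratio in ATAS over ATAB, 0.999, was not called, and that of 1.10 in ATAS over ATFB was called with library totals and under none of the other 3 scalings.

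Aminopeptidases that process angiotensin peptides took different courses. LNPEP, which binds angiotensin IV, had 8, 217, 282 and 214 reads and was 25.7-fold to 34.5-fold higher in the adult libraries than in ATFB. ANPEP was 3.26-fold to 4.62-fold higher in adults, and ENPEP was lower in ATAH than in ATFB and ATAB, by 2.16-fold and 2.24-fold. CPA3, a mast cell carboxypeptidase, was 2.34-fold higher in ATAS than in ATFB, a call lost with ACTB as the scaling gene. NR3C2, the mineralocorticoid receptor, had 23, 96, 140 and 219 reads, and its call in ATAS over ATAB, 2.37-fold, was lost with TMM factors. Between ATAS and ATAB, 2 of 13 genes of the list were higher and none lower, where 7.0% of all clusters were higher and 1.89% lower, and the median log2 ratio was 0.08 against 0.34 over all clusters. With TMM factors 1 was higher and 1 lower, where 3.42% of all clusters were higher and 3.50% lower, and the median was -0.21 against 0.05.

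Complement genes were measured in 26 of 37 listed genes besides C3. In ATAS against ATFB 11 of 25 tested were higher and 1 was lower, where 15.6% of all clusters were higher and 10.8% lower, with a median log2 ratio of 0.99 against 0.13 over all clusters. In ATAS against ATAB 4 of 23 were higher and none lower, where 7.0% of all clusters were higher and 1.89% lower, and with TMM factors 1 was higher and 1 lower, against 3.42% and 3.50% of all clusters. C3 itself had a larger ratio in ATAS against ATAB, 3.10 on the log2 scale, than any of the 23.

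The proteins of the alternative pathway went in opposite directions. CFB had 458.8, 150.3, 105.1 and 80.5 RPKM, highest where C3 was lowest, and was lower than in ATFB in each adult library, with log2 ratios of -1.61, -2.13 and -2.51. CFD, also called adipsin and made by fat cells, had 28.1, 61.7, 98.1 and 114.9 RPKM and was called higher in all 3 adult libraries, in ATAB not with ACTB as the scaling gene.

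C1QC, a chain of C1q, had 38.8, 116.7, 152.0 and 184.6 RPKM, and CR2, a receptor of C3 fragments, had 1.56, 14.9, 18.6 and 20.6 RPKM, and both were above ATFB in every adult library, as calls. ITGAM and ITGB2, the chains of complement receptor 3 of myeloid cells, were called higher than in ATFB in every adult library, but the call of ITGB2 in ATAH was lost under each other scaling and that in ATAB with ACTB. C3AR1, the receptor of C3a, had 4.17, 5.42, 7.30 and 8.95 RPKM, and its call in ATAS against ATFB, a log2 ratio of 1.10, was likewise lost under each. CLU, clusterin, which restrains the terminal complex, had 527.2, 2001, 3820 and 2669 RPKM and was the most abundant gene of the list in each library.

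Of 31 genes of NAD synthesis and use besides NAMPT, 23 had a named cluster. In ATAB, ATAH and ATAS against ATFB, 8 of 22, 6 of 23 and 7 of 22 tested were higher, where 9.61%, 14.0% and 15.6% of all clusters were, and 1, 0 and 0 were lower. The median log2 ratios were 0.51, 0.62 and 0.74 against -0.18, 0.12 and 0.13 over all clusters, and with ACTB as the scaling gene 6, 4 and 6 were higher, where 7.32%, 10.6% and 12.3% of all clusters were. NMNAT1, which makes NAD from the NAMPT product in the nucleus, had 336, 527, 534 and 466 reads and was not called in any comparison. NMNAT2, the cytoplasmic form, was 3.15-fold higher in ATAB than in ATFB. NADK, which phosphorylates NAD, had 22.1, 73.3, 82.3 and 72.2 RPKM, and SIRT3, a mitochondrial NAD-dependent deacylase, had 5.66, 8.93, 16.7 and 15.9 RPKM and was above ATFB in ATAH and ATAS, as calls.

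The list also holds enzymes of tryptophan breakdown. IDO1, which starts tryptophan breakdown, had 85, 366, 2027 and 4844 reads or 3.26, 13.3, 76.2 and 182.5 RPKM. It was called in all 6 comparisons and was 13.7-fold higher in ATAS than in ATAB. QPRT, which feeds quinolinate into NAD, had 8.75, 80.9, 51.5 and 27.1 RPKM and was highest in ATAB, so that it was lower in ATAS than in ATAB with a log2 ratio of -1.58. ACMSD, which diverts the path away from quinolinate, had 4, 41, 25 and 40 reads and was above ATFB in every adult library, as calls, in ATAH not with ACTB as the scaling gene, while AFMID and KYNU, enzymes between IDO1 and QPRT, had at most 45 reads in a library and KMO, another, at most 1. Set against ATAB, ATAS had IDO1 as the only gene higher and QPRT as the only gene lower among the 22 tested. Of all clusters 7.0% were higher and 1.89% lower there, and the median log2 ratio was 0.02 against 0.34 over all clusters.

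**Figure D3:**
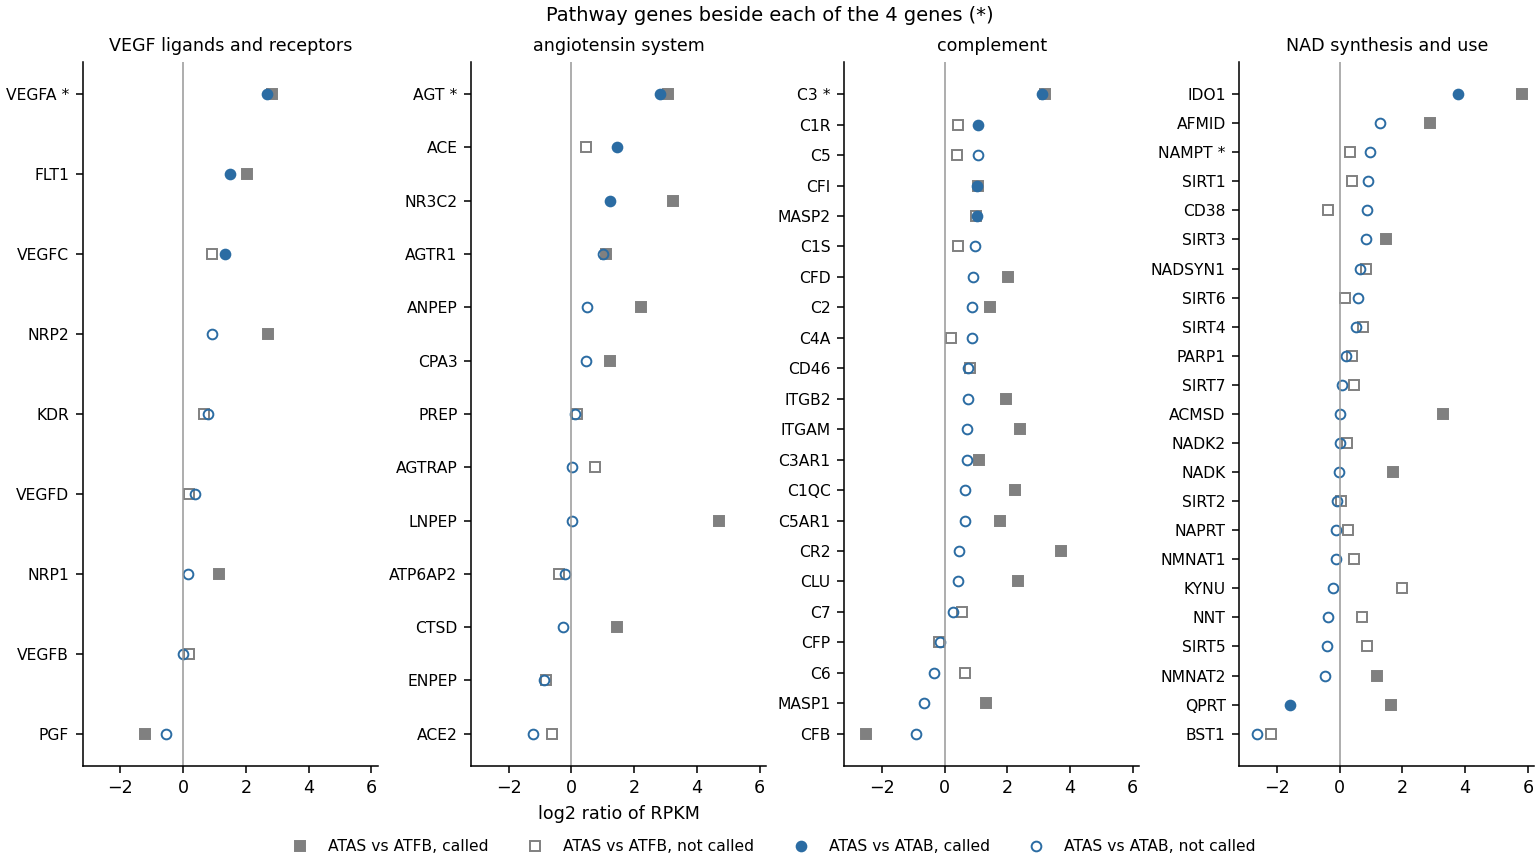
Log2 ratio of RPKM (horizontal axes) of ATAS over ATFB (squares) and of ATAS over ATAB (circles) for genes of 4 pathway lists that had a named cluster and both ratios, filled where called, with the gene of each pathway under study marked by an asterisk and rows sorted by ATAS over ATAB. VEGFA, AGT and C3 top their panels at 2.67, 2.82 and 3.10 in ATAS over ATAB, and IDO1 tops the last at 3.78, with NAMPT at 0.95.

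Cytokine signalling is known to act on genes such as C3 and AGT, and 13 of 20 listed genes had a named cluster. Of these, 4 were higher and 1 was lower in ATAS than in ATAB, where 7.0% of all clusters were higher and 1.89% lower, and TMM factors gave the same counts, against 3.42% and 3.50% of all clusters. The median log2 ratio was 0.69 against 0.34 over all clusters. SOCS3, a feedback inhibitor of cytokine receptors, had 7.76, 9.64, 27.6 and 52.9 RPKM, and IL6R, a receptor chain of interleukin 6, had 2.87, 5.48, 12.1 and 27.4 RPKM, both in the order of VEGFA, AGT and C3. PTX3, a soluble pattern recognition protein, had 71.1, 4.23, 62.5 and 31.6 RPKM, lowest in ATAB. CEBPD, a factor of the acute-phase response, had 447.3, 96.4, 216.1 and 277.9 RPKM. HP, haptoglobin, an acute-phase protein, went the other way with 10.4, 137.1, 70.3 and 38.3 RPKM. TNFRSF1B, a receptor of TNF, had 5.06, 25.8, 25.3 and 41.6 RPKM. IL6, IL10, CCL2 and IL1RN were not analysed here.

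Of 10 genes that respond to glucocorticoids, 9 had a named cluster. In ATAS against ATAB 7 of 9 were higher and none lower, where 7.0% of all clusters were higher and 1.89% lower, with a median log2 ratio of 1.28 against 0.34 over all clusters. With TMM factors 4 were higher, where 3.42% of all clusters were. SGK1, a kinase, had 20.9, 34.1, 82.8 and 119.5 RPKM, and KLF9, a transcription factor, had 18.3, 35.5, 64.2 and 90.2 RPKM. ZBTB16 had 15.7, 6.46, 27.4 and 35.6 RPKM, and ERRFI1 had 1206, 250, 1197 and 1040 reads, both lowest in ATAB. The calls of DUSP1, PER1 and TSC22D3 in ATAS against ATAB, at log2 ratios of 1.28, 1.18 and 1.19, were those lost with TMM factors.

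In pooled tissue, fewer cells of a type and less RNA per cell cannot be told apart, so cell type markers were summed in each library. The 6 adipocyte markers (ADIPOQ, LEP, PLIN1, CIDEC, LIPE and LPL) summed to 725.4 RPKM in ATFB and to 4173, 5119 and 5513 RPKM in ATAB, ATAH and ATAS, and none was at 0 reads in any library. The 10 endothelial markers summed to 714.2, 632.7, 876.7 and 1181 RPKM in the 4 libraries. CLDN5 (254.5 RPKM in ATFB and 100.7 in ATAB) and EMCN (110.0 and 30.4) were called lower in ATAB than in ATFB, while 6 of the 10 had a log2 ratio above 0 there and the median was 0.26 against -0.18 over all clusters. In ATAS against ATAB their median log2 ratio was 0.93 against 0.34 over all clusters, and 3 were called higher, where 7.0% of all clusters were. With TMM factors 0 were, where 3.42% of all clusters were. The 5 macrophage markers summed to 130.4, 206.4, 190.0 and 297.8 RPKM and the 7 lymphocyte markers to 5.43, 13.6, 19.7 and 32.1 RPKM, highest in ATAS as were the 4 genes.

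The 6 fibroblast and preadipocyte markers, among them COL1A1 and COL3A1, summed to 11040, 7747, 2290 and 2998 RPKM. In ATAS against ATAB 3 of the 6 were lower (COL1A1, COL3A1 and LUM) and 1 was higher (DLK1, at 0 reads in ATAB), where 7.0% of all clusters were higher and 1.89% lower. COL1A1 and COL3A1 made up most of the sum in ATAB, at 3412 and 2903 RPKM, while DCN had 1115 RPKM in ATAB and 1155 in ATAS. The part of these cells in the results was not tested. Of the hepatocyte markers, ALB had 14 to 27 reads a library, SERPINA1 had 27 reads in ATFB and none in the adults, and FGB had 0 to 21 reads. TF, transferrin, the other marker of this list with a named cluster, had 2.48, 90.8, 161.2 and 113.1 RPKM and was above ATFB in every adult library, as calls, at log2 values of 5.19, 6.02 and 5.51. The 5 muscle markers summed to 1.72 to 5.14 RPKM. The 2 red cell markers summed to 2390 RPKM in ATFB and to at most 1.54 RPKM in the adults.

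**Figure D4:**
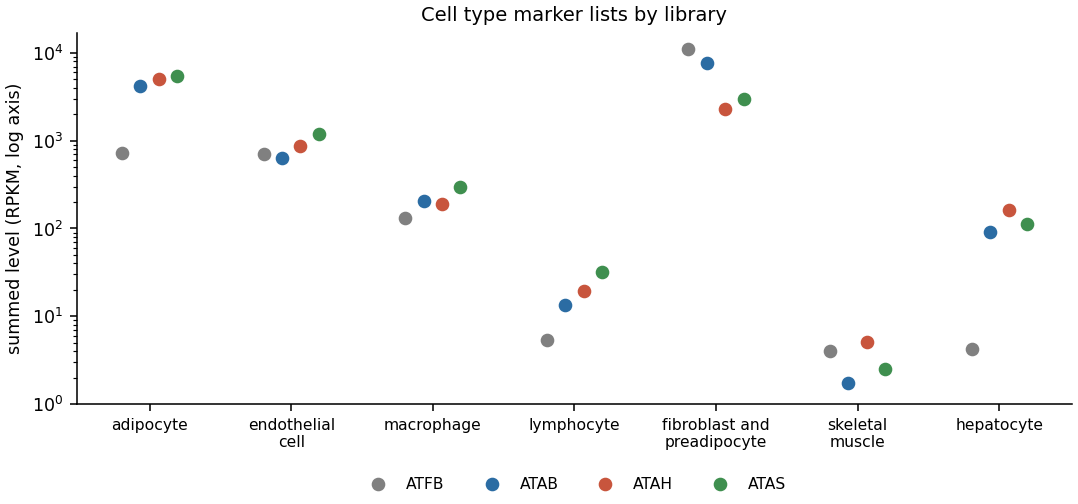
Summed level in RPKM (vertical axis, logarithmic) of 7 cell type marker lists in the 4 libraries, with 1 point per library. Adipocyte markers were lowest in ATFB (725.4 RPKM), fibroblast and preadipocyte markers lowest in ATAH (2290 RPKM), and endothelial, macrophage and lymphocyte markers highest in ATAS (1181, 297.8 and 32.1 RPKM).

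Likeness of pattern was measured over the 4 libraries as the Euclidean distance between log2(RPKM + 1) values centred on each gene's mean, among 1552 named genes with a mean of at least 10 RPKM. Of these, the nearest to VEGFA were SOCS3 (distance 0.387), IL6R (0.477) and AGT (0.547). Nearest to AGT were TP53INP1 (0.145), SOCS3 (0.255) and BTG2 (0.444), with C3 the sixth and VEGFA the ninth in order. C3 had AGT (0.536), BTG2 (0.55) and TP53INP1 (0.637) nearest. For NAMPT the nearest were MAPK1IP1L (0.0647), XPC (0.126) and KDM3A (0.129), at 15.8, 12.0 and 14.5 RPKM in ATAB, the lowest library of each. With 4 points a gene, many genes lie close to any pattern, and these distances are a description.

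The share of each cluster sequence covered by reads bears on how far a cluster measures the whole transcript. C3 was covered over 87.1% of its bases in ATFB and 99.6% in ATAH and in ATAS. VEGFA was covered over 76.2% to 84.6%, and 237 of its bases had no read even among the 6136 reads of ATAS. AGT was covered over 66.2% to 74.8%. NAMPT had 91.7% covered in ATFB and 86.4% in ATAS although ATAS had more reads. Per covered base, the log2 ratio of ATAS over ATFB was 2.681 against 2.83 for VEGFA, 2.90 against 3.08 for AGT, 3.002 against 3.19 for C3 and 0.43 against 0.34 for NAMPT.

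**Figure D5:**
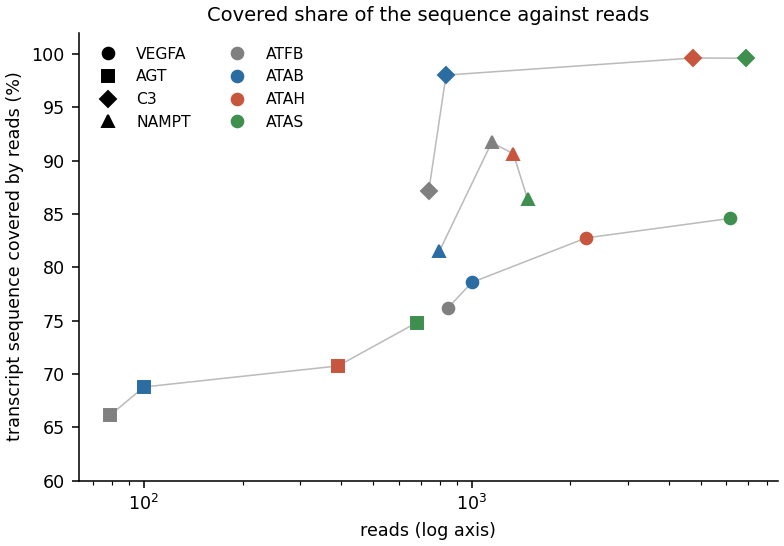
Percent of the cluster sequence covered by at least a single read (vertical axis, from 60) against reads (horizontal axis, logarithmic) for the 4 genes (symbols) in the 4 libraries (colours), with grey lines joining the libraries of a gene in order of reads. C3 reached 99.6% at 4734 reads, while VEGFA stood at 84.6% at 6136 reads.

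Sequence shared with other clusters can take reads from a gene. Words of 25 bases were compared with every other cluster on both strands. An unnamed cluster of 551 bases, Bt.71502, shared 475 bases with VEGFA, all between bases 1 and 476 and so before the coding region. Its 47, 92, 261 and 649 reads, or 5.58, 10.3, 30.4 and 75.7 RPKM, followed the same order of libraries as VEGFA. With its reads added to those of VEGFA, a choice made after seeing the data, the log2 ratio was 2.90 in ATAS over ATFB and 2.69 in ATAS over ATAB. AGT shared 37 bases with the unnamed Bt.106795, which had 35, 8, 94 and 94 reads and was called lower in ATAB than in ATFB. With these reads added, the log2 ratio of AGT in ATAB over ATFB went from 0.26 to -0.16, not called, and was 2.74 in ATAS over ATFB and 2.90 in ATAS over ATAB. NAMPT shared at most 2 words with any other cluster, and C3 none.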

How the data were processed

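The study's reads came from Illumina sequencing (CASAVA, per the submitters' processing notes) of 1 pooled library per group, and the authors aligned cleaned reads to the bosTau7 genome with SOAPaligner, at first with no mismatch allowed, and kept reads that mapped uniquely. They deposited read counts per UniGene cluster without normalization, the percent of each cluster sequence covered by reads, and the RPKM computed from count, length and library total, together with the cluster sequences. How reads were assigned to the clusters, and whether strand was used, is not given in the sources used here. Symbols were matched to 4838 clusters through RefSeq accessions (3446), symbols in the descriptions (1301) or full gene names (91), and the cluster with most reads was taken for a symbol.

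Counts were compared between libraries by binomial tests (scipy 1.17.1), a count of 0 being read as up to 3 reads and no ratio given where both libraries were at or under 3. ATFB was tested against the adults with edgeR 4.0.16 (quasi-likelihood, TMM, filterByExpr), with DESeq2 1.42.0 among the alternatives. Both tests were tried on simulated data with known changes. Genes named from a list were those called in any comparison, largest log2 ratio first and at most 8 a list, plus 12 partners of the 4 genes where they had a named cluster, and the 3 most alike in pattern to each of the 4. The 4 genes and the lists were chosen with earlier results of these data known. Values of some listed genes are not reported here, although the counts of their lists include them.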

Additional observations from a re-analysis of the deposited data

Results flagged for a closer look

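NAMPT had ratios of opposite sign to ATFB among the adult libraries. Its log2 ratio was -0.61 in ATAB over ATFB, 0.19 in ATAH over ATFB and 0.34 in ATAS over ATFB, from 1152, 797, 1342 and 1484 reads in ATFB, ATAB, ATAH and ATAS. What drew attention was that the bull library lay below the fetal library and the heifer and steer libraries above it. With a single library per group, this difference was not tested. None of the 3 ratios reached 2-fold, and with ACTB as the scaling gene that of ATAH was -0.08. The median log2 ratio over all clusters had the same signs, at -0.18, 0.12 and 0.13, and 63.7%, 47.7% and 44.3% of the clusters with a ratio had a higher one than NAMPT, so the pattern is not shown to be particular to it.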

How the results depend on the processing

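No paired analysis was possible because each group had a single library. The 4 genes' ratios between 2 libraries were recomputed under 180 alternatives, of which 161 kept direction and side of the threshold; the cause of the changes below was not tested unless the alternative itself shows it. With ACTB as the scaling gene, ratios that were not called turned below 0 for VEGFA (-0.073) and C3 (-0.14) in ATAB over ATFB and for NAMPT (-0.082) in ATAH over ATFB. VEGFA in ATAH over ATAB went under 2-fold with TMM factors (0.93) and with DESeq2 size factors (0.93). A biological coefficient of variation of 0.4 was also assumed between libraries, with no allowance for the 5 animals pooled in each. With it the exact test of edgeR kept the ratios and called none of the 4 genes against ATFB at an FDR of 0.001. The calls lost were VEGFA (1.38), AGT (2.28) and C3 (2.65) in ATAH over ATFB, and VEGFA (2.83), AGT (3.08) and C3 (3.19) in ATAS over ATFB. Between adults the ratios past the main criteria were VEGFA (1.21), AGT (2.02) and C3 (2.55) in ATAH over ATAB, and VEGFA (1.46) in ATAS over ATAH. In ATAS over ATAB they were VEGFA (2.67), AGT (2.82) and C3 (3.10). These adult ratios are a description from whose calls nothing is read, and this exact test called none of them. In ATAS over ATFB the adjusted p of this test was 0.036 for VEGFA, 0.0237 for AGT and 0.0162 for C3 (edgeR).

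Counts of called clusters with this test were 184, 229 and 278 in ATAB, ATAH and ATAS against ATFB, and 13, 5 and 12 in ATAH against ATAB, ATAS against ATAB and ATAS against ATAH. The main counts in the same order were 7808, 8320, 9076, 1890, 2995 and 1048. With the reads of clusters of the same symbol added together, which leaves named genes only, they were 1297, 1595, 1725, 377, 702 and 206. An FDR of 0.05 gave 3590, 4695 and 2105 in the 3 adult comparisons. The share of calls higher in the first-named library was 42.0% in ATAB against ATFB, 77.5% in ATAH against ATAB and 78.8% in ATAS against ATAB with library totals, and 53.2%, 48.9% and 49.4% with TMM factors. ATFB could not be left out, as it was the sole fetal library.

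In ATFB against the adults, 4664 clusters were called by edgeR's quasi-likelihood test and 7408 by its likelihood ratio test. Leaving out an adult library gave 2325 (without ATAH) to 7121 (without ATAB). The log2 fold change then ranged from 0.87 (without ATAS) to 2.13 for VEGFA, 1.55 to 2.59 for AGT, 1.81 to 2.80 for C3 and -0.16 to 0.13 for NAMPT. AGT was called by DESeq2's Wald test (2.14, DESeq2 adjusted p = 0.0337), a call from which nothing is read. NAMPT was at 0.029 with library totals. Per covered base, ATAS over ATFB was 2.68 for VEGFA and 3.002 for C3. Adding the overlapping cluster to VEGFA or to AGT, chosen after seeing the data, changed no call and turned AGT in ATAB over ATFB to -0.158. Counting error was largest for AGT, with 79 reads in ATFB, and the spread between animals was not measured.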
